A study of Mus musculus with 2 samples.

Results

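Matrix proteases cut the proteins and proteoglycans that surround vessels, and 4 tissue inhibitors of metalloproteinases (TIMPs) bind and block them. The genes followed here were 4 proteases, Mmp14, Adamts1, Adamts4 and Adamts9, and the 4 inhibitors Timp1, Timp2, Timp3 and Timp4. These 8 were chosen by name from 18309 genes listed in either of 2 count tables, and all 8 were listed in both. Each table held 1 single-cell 10x library of CD45-/CD31+ cells sorted by FACS, so each condition had 1 library and no statistical test between conditions could be made. The tumor library (tumor endothelial cells, TECs) came from pooled mammary tumors grown from orthotopically implanted E0771 mouse mammary cancer cells, and its labels gave no strain or age. The normal library (normal endothelial cells, NECs) was described by the study as pooled mammary glands, and labelled as C57BL/6 mice aged 6 to 8 weeks. Its title and the series design named normal tissue, whereas its tissue label read E0771 mammary and its cell type label read TECs. Neither group carried a transgene or a treatment in the labels, and animals were pooled within each library, so spread between animals was not measured.

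The normal table held 9047 barcodes with a median of 2973 unique molecular identifiers (UMIs, each counted as 1 RNA molecule) and 40914092 UMIs in all. The tumor table held 704 barcodes with a median of 14106.5 UMIs and 18980858 in all, and 3 barcodes occurred in both tables. Cells with at least 200 genes, under 10% mitochondrial UMIs and no UMI of the leukocyte gene Ptprc were kept, 6873 in the normal and 475 in the tumor library. A cell was endothelial if it held at least 1 UMI of Cdh5 plus Pecam1, genes of endothelial junctions, and fewer of Rhox5 plus Hmga2 plus Krt8. A tumor cell was called cancer-like if it held at least 3 UMIs of the latter trio and more of them than of Cdh5 plus Pecam1. This gave 5409 normal endothelial cells with 20145494 UMIs, 262 tumor endothelial cells with 4656888 UMIs and 185 cancer-like cells with 11908383 UMIs. Median depths differed, at 3071, 16950 and 62538 UMIs per cell. Levels are therefore given as UMIs per 1000000 UMIs of all cells of a group (CPM), with exact 95% Poisson intervals that cover counting error only.

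The labelled cell type was checked against 10 endothelial markers. Of these, Cdh5 and Pecam1 had also chosen the cells, so the rule partly fixes this check. Together they stood at 2134 CPM in tumor endothelium. All 10 were detected in both endothelia, at 7883 CPM in sum in normal and 7607 CPM in tumor endothelium, with Egfl7 the most abundant in both. In cancer-like cells 9 of the 10 had a UMI, at 70.0 CPM in sum, and Erg was at 0. Cancer-like cells held the trio that defined them at 1206 CPM, whereas of 10 mammary epithelial markers only 7 were listed in the tumor table, at 1.68 CPM in sum, with Epcam the most abundant at 1.01 CPM and Krt7, Cldn7 and Cdh1 at 0. Of 8 fibroblast markers 7 had a UMI in these cells, at 289 CPM in sum, of which Col3a1 made 238 CPM. They are therefore called by their rule and not by a cell type. In normal endothelium Rhox5 had 2 UMIs, Hmga2 had 4 UMIs and Krt8 had 762 UMIs, or 37.8 CPM. In tumor endothelium these 3 genes had 19, 7 and 3 UMIs, with Krt8 at 0.644 CPM. Normal endothelium also held 7 salivary gland genes at 3137 CPM in sum, led by Dcpp1 at 1369 CPM. In single normal clusters their sum ran from 609 CPM in cluster 15 to 14807 CPM in cluster 1, described below, and none of these genes was listed in the tumor table. Whether the normal reference also held vessels of another organ, and the part of this in the levels and in each ratio of tumor over normal endothelium below, was not tested.

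Mmp14 is a membrane-anchored collagenase, carried on the cell surface, that also turns the soluble gelatinase precursor proMMP2 into its active form, for which Timp2 serves as the bridge. Adamts1, Adamts4 and Adamts9 are secreted proteases that cut the large proteoglycans versican and aggrecan, and Adamts1 is also known to restrain vessel growth. The TIMPs differ in reach: Timp1 blocks most secreted matrix metalloproteinases but binds Mmp14 weakly, Timp2 and Timp3 block Mmp14, Timp3 is held in the matrix and also blocks ADAMTS proteases, and Timp4 has a narrower tissue distribution. In growing vessels, matrix cleavage at the tips of sprouts is set against these inhibitors.

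In the GENCODE M21 annotation of GRCm38, the build named mm10 in the submitters' notes, the proteases lay at Mmp14 (chr14:54431612-54445364, plus strand), Adamts1 (chr16:85793827-85803113, minus strand), Adamts4 (chr1:171250421-171260637, plus strand) and Adamts9 (chr6:92772699-92943492, minus strand). The inhibitors lay at Timp1 (chrX:20870166-20874735, plus strand), Timp2 (chr11:118301069-118355740, minus strand), Timp3 (chr10:86300372-86349506, plus strand) and Timp4 (chr6:115241892-115252205, minus strand). Timp1, Timp3 and Timp4 each lay inside a synapsin gene on the opposite strand, namely Syn1, Syn3 and Syn2. No exon of Syn1 overlapped an exon of Timp1, 1 exon of Syn3 overlapped Timp3 and 2 exons of Syn2 overlapped Timp4. Whether the counting used strand is not given in the sources used here. The synapsin counts were low in both endothelia, with Syn2 at 11.7 CPM in normal and 9.45 CPM in tumor endothelium and Syn3 at 20.8 and 4.08 CPM. Syn1 had 2 UMIs in tumor endothelium and was not listed in the normal table.

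The 250 bases before the annotated start are shown for 4 genes: Mmp14 and Timp1, the 2 members at least 2-fold higher in tumor than in normal endothelium, Timp4, the member with the lowest ratio, and Adamts1, as 1 of the 3 ADAMTS proteases. The start is that of RefSeq, which for Mmp14 lies slightly upstream of the GENCODE gene start given above, where no GENCODE transcript begins, and motif distances are counted from it. The sequences are from RefSeq on GRCm38.p6, read 5′ to 3′ on the strand of the gene, from chr14:54431348-54431597 for Mmp14, chr16:85803114-85803363 for Adamts1, chrX:20869916-20870165 for Timp1 and chr6:115252206-115252455 for Timp4. Capitals mark matches on either strand to 5 motifs, namely TGANTCA for activator protein 1, TGACGTCA for the cyclic AMP response, ACGTG as a core of the hypoxia response element, GGGCGG as the GC box, and the TATA box motif, which was searched as TATAAA. Matches to different motifs did not overlap.
Mmp14: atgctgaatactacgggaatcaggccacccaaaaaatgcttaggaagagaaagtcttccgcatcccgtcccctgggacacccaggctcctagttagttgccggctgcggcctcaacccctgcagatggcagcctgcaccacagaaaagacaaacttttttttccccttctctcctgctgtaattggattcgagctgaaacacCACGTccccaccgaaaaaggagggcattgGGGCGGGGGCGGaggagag
Adamts1: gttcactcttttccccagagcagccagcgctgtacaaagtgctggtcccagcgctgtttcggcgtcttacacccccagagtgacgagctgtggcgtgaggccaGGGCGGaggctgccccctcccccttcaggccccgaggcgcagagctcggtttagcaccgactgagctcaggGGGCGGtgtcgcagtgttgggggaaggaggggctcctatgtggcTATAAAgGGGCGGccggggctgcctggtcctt
Timp1: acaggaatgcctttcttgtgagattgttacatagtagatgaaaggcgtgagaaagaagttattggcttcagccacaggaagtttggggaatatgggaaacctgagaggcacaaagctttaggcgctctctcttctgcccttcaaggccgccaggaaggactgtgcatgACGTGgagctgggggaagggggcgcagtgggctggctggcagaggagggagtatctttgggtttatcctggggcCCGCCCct
Timp4: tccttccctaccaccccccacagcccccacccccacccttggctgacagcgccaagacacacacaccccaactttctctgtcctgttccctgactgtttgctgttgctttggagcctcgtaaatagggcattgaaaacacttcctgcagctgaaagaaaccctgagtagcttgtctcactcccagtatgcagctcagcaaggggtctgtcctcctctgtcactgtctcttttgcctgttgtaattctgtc
Mmp14 and Timp1 each held 1 ACGTG match, beginning 48 and 82 bases before the start, and the same letters occurred in 16.6% of 32851 promoter windows of this length. Mmp14 held 2 GC boxes, Timp1 held 1 and Adamts1 held 3, and 32.7% of all windows held at least 1. Adamts1 alone among the 7 members with a RefSeq promoter had a TATAAA match, 32 bases before its start, against 12.4% of all windows. Timp4 held none of the 5 motifs. No window of the 7 held TGANTCA or TGACGTCA, which occurred in 6.75% and 1.55% of all windows. Adamts4 was not among the promoters matched by symbol. These matches are a description of letters and not of binding.

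**Figure D1:**
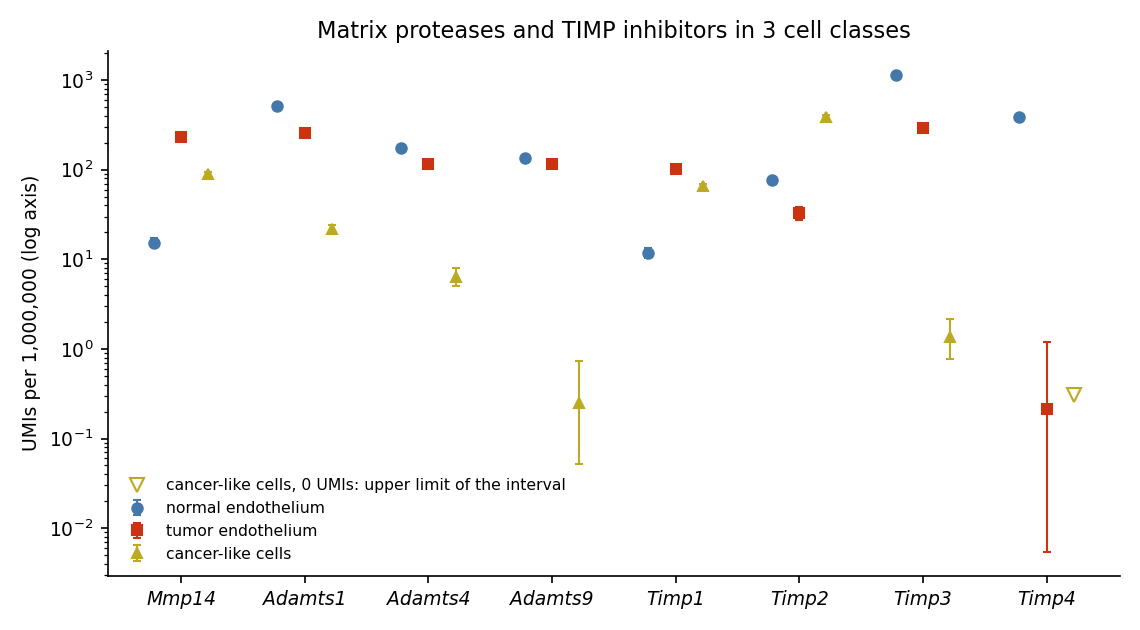
Level of each of the 8 genes (CPM, log axis) in normal endothelium (circles, 5409 cells), tumor endothelium (squares, 262 cells) and cancer-like cells (triangles, 185 cells), with 95% Poisson intervals. Mmp14 and Timp1 sit higher in tumor than in normal endothelium, at 231 against 15.4 CPM and 101 against 11.7 CPM, and Timp4 sits at 389 CPM in normal and 0.215 CPM in tumor endothelium, with the open triangle marking the upper limit for 0 UMIs in cancer-like cells.

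The first comparison was between tumor and normal endothelium. Mmp14 had 310 UMIs in normal endothelium, or 15.4 CPM (13.7 to 17.2), and 1076 UMIs in tumor endothelium, or 231 CPM (217 to 245). It was 15.0-fold higher in the tumor library, a log2 ratio of 3.91 (3.72 to 4.10), the 40th highest ratio of 8257 genes compared. Timp1 had 236 UMIs and 11.7 CPM (10.3 to 13.3) in normal endothelium and 472 UMIs and 101 CPM (92.4 to 111) in tumor endothelium. It was 8.65-fold higher, a log2 ratio of 3.11 (2.88 to 3.34). These were the 2 members at least 2-fold higher, the size called a difference here, where 10.2% of all genes compared were. The other inhibitors were lower in the tumor library.

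Timp4 was the most extreme of them, with 7832 UMIs or 389 CPM (380 to 397) in normal endothelium and a single UMI among the 4656888 of tumor endothelium, 0.215 CPM (0.00544 to 1.2). Its log2 ratio was -10.82 (-16.13 to -8.34), the 33rd lowest of all genes compared. Timp3 stood at 1138 CPM (1123 to 1153) in normal and 289 CPM (274 to 305) in tumor endothelium, 3.94-fold lower. Timp2 stood at 76.9 CPM (73.1 to 80.8) and 32.6 CPM (27.7 to 38.3), 2.36-fold lower. Among the proteases, Adamts1 stood at 516 CPM (506 to 526) and 256 CPM (242 to 271), and its ratio of 2.01-fold lower lay at the edge of the 2-fold limit. These 4 members were at least 2-fold lower, where 17.6% of all genes compared were.

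Adamts4 and Adamts9 lay within 2-fold. Adamts4 stood at 176 CPM (171 to 182) in normal and 115 CPM (105 to 125) in tumor endothelium, a log2 ratio of -0.62 (-0.75 to -0.49). Adamts9 stood at 137 CPM (132 to 142) and 116 CPM (106 to 126), a log2 ratio of -0.24 (-0.38 to -0.11). Over the 8 members the median log2 ratio was -0.81, and over all genes compared it was -0.09. With 1 library per condition, these differences compare 2 libraries. Adamts1 lay inside the 2-fold limit under several other settings, at log2 ratios of -0.92 when centred on the median of all genes and -0.54 when each cell weighed the same. With each cell weighed the same, Timp2 was also within 2-fold, at -0.58.

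Markers of mural cells also differed between the libraries. The 8 pericyte markers summed to 357 CPM in normal endothelium, led by Rgs5 at 211 CPM, and to 44.7 CPM in tumor endothelium, led by Kcnj8 at 22.8 CPM and with Cspg4 at 0. The 5 smooth muscle markers summed to 591 CPM, led by Acta2, and to 9.45 CPM, with Cnn1 and Lmod1 at 0. A pericyte-like cluster of 178 cells held much of this RNA, at 4130 CPM of pericyte and 7236 CPM of smooth muscle markers. Without it, Adamts1 in normal endothelium stood at 467 CPM and its log2 ratio at -0.87, inside the 2-fold limit. Adamts4 then stood at 139 CPM in normal endothelium, a log2 ratio of -0.27. The ratios of Mmp14, Timp1, Timp2, Timp3 and Timp4 kept their side of the 2-fold limit, at 4.15, 3.17, -1.20, -1.94 and -10.86.

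Normal endothelium holds arteries, veins and capillaries in one mixture, so the members were next followed by vessel type. Clustering without the genes of the protease, inhibitor and substrate lists gave 16 normal and 4 tumor clusters. Normal clusters took a vessel name only where markers of 1 list led, which gave 795 capillary-like cells (cluster 0), 714 arterial-like cells (clusters 3 and 9), 483 venous-like cells (clusters 8, 12 and 14), 100 high endothelial venule-like cells (cluster 15) and 104 mitotic-like cells (cluster 13). High endothelial venules are the vessels by which lymphocytes enter lymphoid tissue. The remaining clusters of endothelium are called by number and leading genes. Between capillary-like, arterial-like and venous-like cells, 7 of the 8 members differed at least 2-fold from the lowest to the highest type, the exception being Timp3, where 27.5% of 9096 genes with at least 10 CPM in 1 of these types did. The count was 6 when cells were sorted singly by their own markers, beside 35.6% of all genes, and 8 with 10 principal components, beside 24.5%. The size of these differences also moved with how the types were made. Over all alternatives the log2 ratio of venous-like over capillary-like cells ran from 2.73 to 6.24 for Timp2 (5.95 as reported here) and from 1.05 to 3.55 for Mmp14 (3.24). That of arterial-like over capillary-like cells ran from 0.57, inside the 2-fold limit, to 3.18 for Adamts1 (3.06), with the lowest value from single sorted cells. Capillary-like cells exceeded arterial-like cells in Timp4 by 2.45 to 3.32 and venous-like cells by 4.25 to 5.08.

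**Figure D2:**
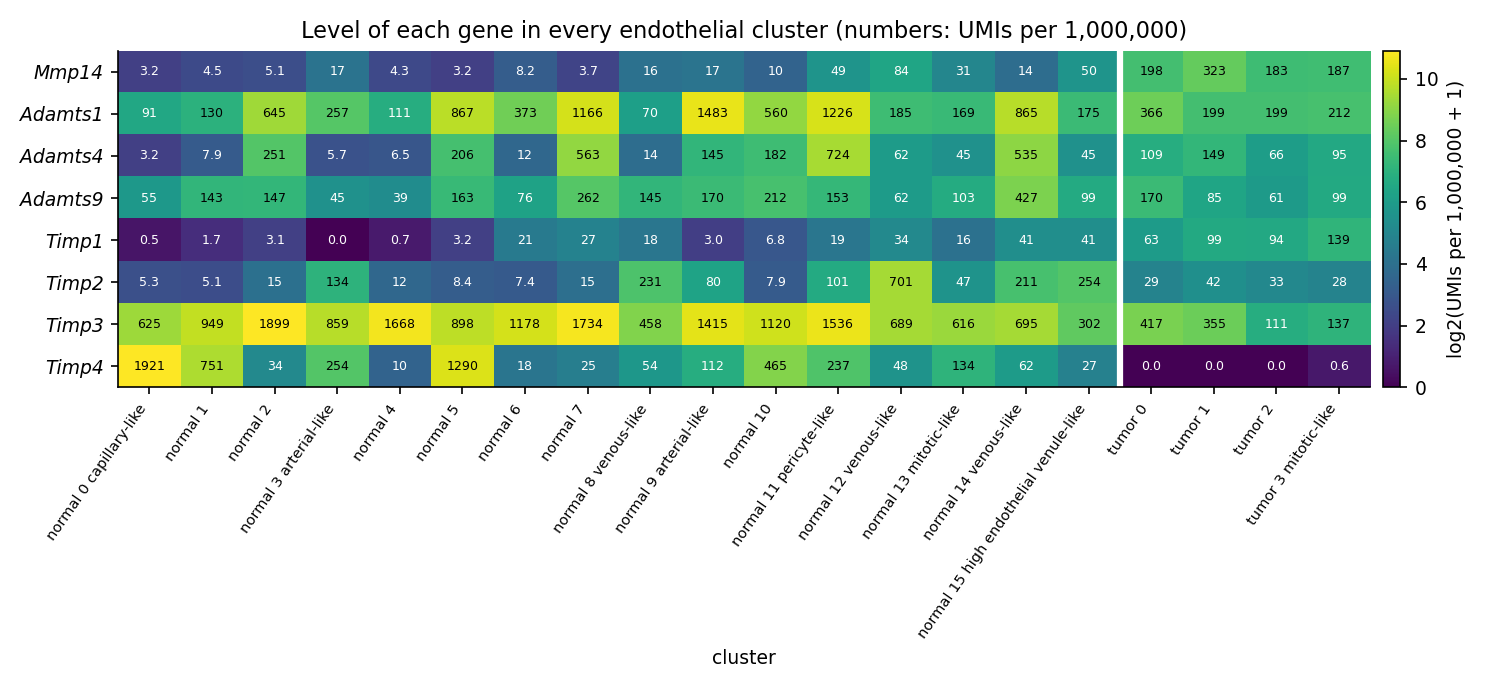
Level of the 8 genes (rows) in the 16 clusters of normal and 4 clusters of tumor endothelium (columns), as CPM in numbers and log2(CPM + 1) in colour. Timp4 is brightest in normal clusters 0 and 5 (1921 and 1290 CPM) and near 0 in the 4 tumor clusters, where Mmp14 reaches 183 to 323 CPM.

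Timp4 was highest in capillary-like cells. It reached 1921 CPM (1859 to 1984) in capillary-like cells from 3635 UMIs, 1290 CPM in cluster 5, which shared the leading genes Car8, Lpl and Aqp1 with it, and 751 CPM in cluster 1, led by Dcpp1, Smr3a, Cldn15 and Aqp7, in which both salivary and capillary markers were raised. Timp4 was itself among the 10 leading genes of clusters 0 and 5, although it had not been used to make them. It stood at 196 CPM (178 to 214) in arterial-like cells, 134 CPM (112 to 159) in mitotic-like cells, 54.8 CPM (45.7 to 65.3) in venous-like cells and 26.5 CPM (17.0 to 39.5) in high endothelial venule-like cells. None of these intervals overlapped. Not every cluster with capillary markers was high in it. The lowest normal cluster, cluster 4 with the leading genes Meis2 and Piezo2, held 10.1 CPM from 14 UMIs, although 4 capillary markers were at least 2-fold higher in it than in the other clusters, none of them among its 10 leading genes. In the 4 tumor clusters Timp4 had 0, 0, 0 and 1 UMI. In the shallow tumor cluster 2 a count of 0 allows up to 16.6 CPM by the limit of 3 counts, above the lowest normal cluster, so that a lower level was not detectable there at this depth.

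At an equal depth of 1500 UMIs per cell, 81.1% of capillary-like cells held a Timp4 UMI (95% exact binomial interval 77.9 to 84.1). The share was 21.8% in arterial-like, 5.40% in venous-like and 3.0% in high endothelial venule-like cells. None of 251 tumor endothelial cells held one, an upper interval limit of 1.46%. No class here was known to lack these genes, so no share of free RNA could be fixed. Before thinning, the share was 83.1% of capillary-like cells and 0.382% of tumor endothelial cells.

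Timp2, the inhibitor that bridges Mmp14 and proMMP2, was highest on the venous side. It stood at 328 CPM (305 to 352) in venous-like cells, 254 CPM (222 to 289) in high endothelial venule-like cells, 111 CPM (98.3 to 125) in arterial-like cells, 47.0 CPM in mitotic-like cells and 5.28 CPM (2.53 to 9.72) in capillary-like cells. Its highest level was 701 CPM from 352 UMIs in venous-like cluster 12, whose leading genes included Htr2b and Il33. The other venous-like clusters, 8 and 14, stood below the high endothelial venule-like cells, so the order of these types rested on cluster 12. The 4 tumor clusters held 28.3 to 41.8 CPM, inside the span of the normal clusters of 5.05 to 701 CPM.

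Timp3, the matrix-bound inhibitor, had a flatter pattern across vessel types. It stood at 1088 CPM (1047 to 1131) in arterial-like cells. Capillary-like cells at 625 CPM (590 to 661), mitotic-like cells at 616 CPM (568 to 668) and venous-like cells at 582 CPM (551 to 614) had overlapping intervals. High endothelial venule-like cells were lowest at 302 CPM (267 to 340). Its highest normal levels, 1899 and 1734 CPM, were in the unnamed clusters 2 and 7, led by Ifi207 and Ier3 and by Arc and Penk. The tumor clusters held 417, 355, 111 and 137 CPM, and the first 2 of these lay above the lowest normal cluster.

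Timp1, the inhibitor that was higher in the tumor library, had few UMIs in most normal vessels. Among normal cells it stood at 40.9 CPM (28.8 to 56.4) in high endothelial venule-like cells and 28.7 CPM (22.2 to 36.5) in venous-like cells, 2 values whose intervals overlapped. It had 15 UMIs in mitotic-like, 3 in arterial-like and 1 in capillary-like cells. Tumor clusters held 62.8, 98.6, 94.2 and 139 CPM, each above the highest normal cluster. Mmp14 stood at 49.7 CPM (36.3 to 66.5) in high endothelial venule-like cells, 31.3 CPM (21.1 to 44.7) in mitotic-like cells, 30.0 CPM (23.4 to 38.0) in venous-like cells, 17.0 CPM (12.2 to 23.1) in arterial-like cells and 3.17 CPM (1.16 to 6.90) in capillary-like cells. The first 3 of these had overlapping intervals. However, the log2 ratio of high endothelial venule-like over venous-like cells was 0.73 (0.15 to 1.29), an interval that left out equality. The venous-like level rested on cluster 12, the highest normal cluster, at 83.6 CPM from 42 UMIs. The other venous-like clusters, 8 and 14, stood at 15.7 and 14.0 CPM, no higher than the arterial-like clusters 3 and 9, at 17.0 and 17.1 CPM. The tumor clusters held 198, 323, 183 and 187 CPM.

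The levels of Mmp14 and Timp1 in every tumor cluster thus exceeded those in every normal cluster, as was the case for 6.19% of 8257 genes, and the measured levels of Timp4 were below every normal cluster, as for 7.99% of genes, with the limit just given for tumor cluster 2. The other 5 members overlapped between the libraries. For Timp1 the gap was narrow, at 62.8 CPM in the lowest tumor cluster and 40.9 CPM in the highest normal cluster. The single intervals of these clusters overlapped. At 1500 UMIs per cell, 1.51% of normal and 25.1% of tumor endothelial cells held an Mmp14 UMI, and 0.933% and 11.2% held a Timp1 UMI. Without thinning these shares were 4.40% and 77.5% for Mmp14 and 2.85% and 57.3% for Timp1.

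**Figure D3:**
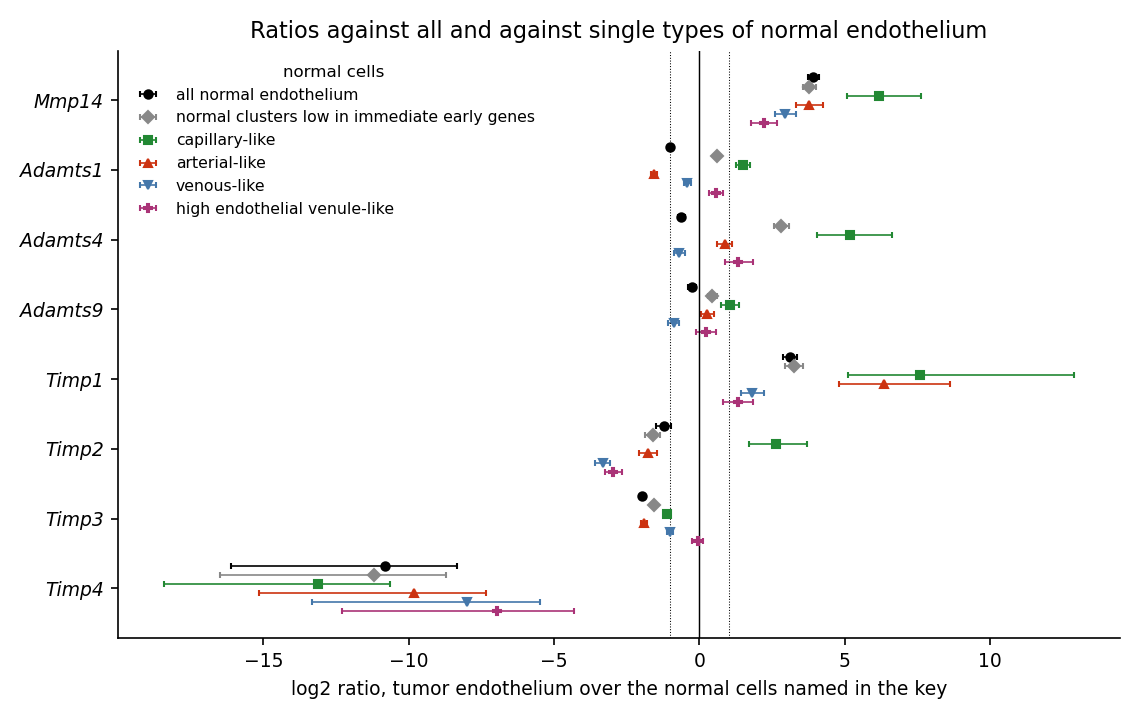
Log2 ratio of tumor endothelium over all normal endothelium, over normal clusters low in immediate early genes and over 4 vessel types, for each gene, with 95% intervals for counting error. Dotted lines mark 2-fold. Mmp14 and Timp1 lie to the right and Timp4 to the left against every reference, whereas Adamts1, Adamts4, Adamts9 and Timp2 cross 0.

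Because the members varied this much among normal vessels, the direction of several ratios depended on the reference. Mmp14 in tumor endothelium was higher than in capillary-like cells by a log2 ratio of 6.19, than in arterial-like cells by 3.76, than in venous-like cells by 2.94 and than in high endothelial venule-like cells by 2.22 (1.79 to 2.68). Timp1 was higher against the same types by 7.58, 6.35, 1.82 and 1.31 (0.83 to 1.83). The ratio of Timp4 was -13.13, -9.83, -8.0 and -6.95 (-12.31 to -4.33) against them, each from the single tumor UMI. Timp3 was lower against capillary-like, arterial-like and venous-like cells, at -1.11, -1.91 and -1.01, and at -0.06 (-0.25 to 0.13) its interval included 0 against high endothelial venule-like cells.

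Timp2 turned direction. It was lower in tumor endothelium than in venous-like cells, at a log2 ratio of -3.33, than in high endothelial venule-like cells, at -2.96, and than in arterial-like cells, at -1.77 (-2.07 to -1.48), but higher than in capillary-like cells by 2.63 (1.71 to 3.72). Adamts1 was higher than in capillary-like cells by 1.49 (1.26 to 1.73) and lower than in arterial-like cells, at -1.57 (-1.68 to -1.47). Adamts4 was higher than in capillary-like cells by 5.18 (4.04 to 6.63) and lower than in venous-like cells, at -0.70 (-0.89 to -0.51). Adamts9 was higher than in capillary-like cells by 1.06 (0.76 to 1.38) and lower than in venous-like cells, at -0.89 (-1.07 to -0.71). Capillary-like cells were cluster 0 alone, the normal cluster lowest in the immediate early genes followed below. Cluster 5, which shared 4 of its 10 leading genes with cluster 0, held Adamts1, Adamts4 and Adamts9 above their levels in tumor endothelium. The venous-like level of Adamts9, 214 CPM, was a sum over unlike clusters, with 427 CPM in cluster 14. Cluster 8 held 145 CPM (123 to 170), an interval that only just overlapped that of tumor endothelium (106 to 126). Such an overlap of single intervals does not show equal levels.

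The same named type could be compared between the libraries only in part, and these comparisons were chosen after the data had been seen. Of the tumor clusters only the mitotic-like one, with 54 cells, took a name. Against the 104 mitotic-like normal cells, Mmp14 was higher by a log2 ratio of 2.58 (2.04 to 3.17), Timp1 by 3.15 (2.40 to 4.01) and Adamts4 by 1.09 (0.59 to 1.61). Timp3 was lower, at -2.17 (-2.40 to -1.95), and so was Timp4, at -7.76 from a single tumor UMI. Adamts1 stood at 0.33 (0.06 to 0.61), Adamts9 at -0.06 (-0.43 to 0.32) and Timp2 at -0.73 (-1.36 to -0.10), each within 2-fold. With 10 principal components or at resolution 1.2, venous-like clusters of 42 and 35 tumor cells were named and set against 452 and 489 venous-like normal cells. Mmp14 was then higher by 3.62 and 2.59 and Timp1 by 2.16 and 2.12. Timp2 stood at -3.19 and -3.84, Timp3 at -1.58 and -2.07, Timp4 at -6.14 and -5.64, Adamts4 at -1.55 and -1.46 and Adamts1 at -0.60 and -0.70. When cells were sorted singly by their own markers, 106 tumor cells and 4796 of the 5409 normal cells were capillary-like, so that this type was close to all of normal endothelium. Mmp14 stood at 4.32, Timp1 at 3.58, Timp2 at -1.55, Timp3 at -2.16, Timp4 at -9.66 and Adamts1 at -0.71 between them. Mmp14 and Timp1 were thus at least 2-fold higher and Timp3 and Timp4 at least 2-fold lower in tumor cells in each of these 4 comparisons. Timp2 was at least 2-fold lower in 3 of them and within 2-fold between mitotic-like cells, whereas the sign of Adamts4 and Adamts1 changed among them. The 4 comparisons draw on cells of the same 2 libraries and are not independent of each other. The mitotic-like comparison also moved with the clustering. At resolution 0.4 Timp2 stood at -1.06, at least 2-fold lower, Adamts4 at 0.68, within 2-fold, and Adamts1 at -0.13 (-0.42 to 0.16).

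The 3 ADAMTS proteases varied in normal endothelium along a different line from the vessel types. A list of 10 immediate early and heat shock genes (Fos, Fosb, Jun, Junb, Egr1, Atf3, Nr4a1, Ier2, Hspa1a and Hspa1b), chosen after the data had been seen, was summed in each cluster. Immediate early genes, most of which encode transcription factors, are known to be switched on within minutes of a stimulus. All 10 were detected in both endothelia. They stood at 10356 CPM in sum in normal endothelium, led by Junb at 2310 CPM, and at 2543 CPM in tumor endothelium, led by Jun at 526 CPM. In 7 normal clusters of 2024 cells (2, 5, 7, 9, 10, 14 and the pericyte-like cluster 11) the list lay above its level in all normal endothelium, at 12508 to 25055 CPM. In the other 9 clusters of 3385 cells it lay at 1205 to 8016 CPM.

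**Figure D4:**
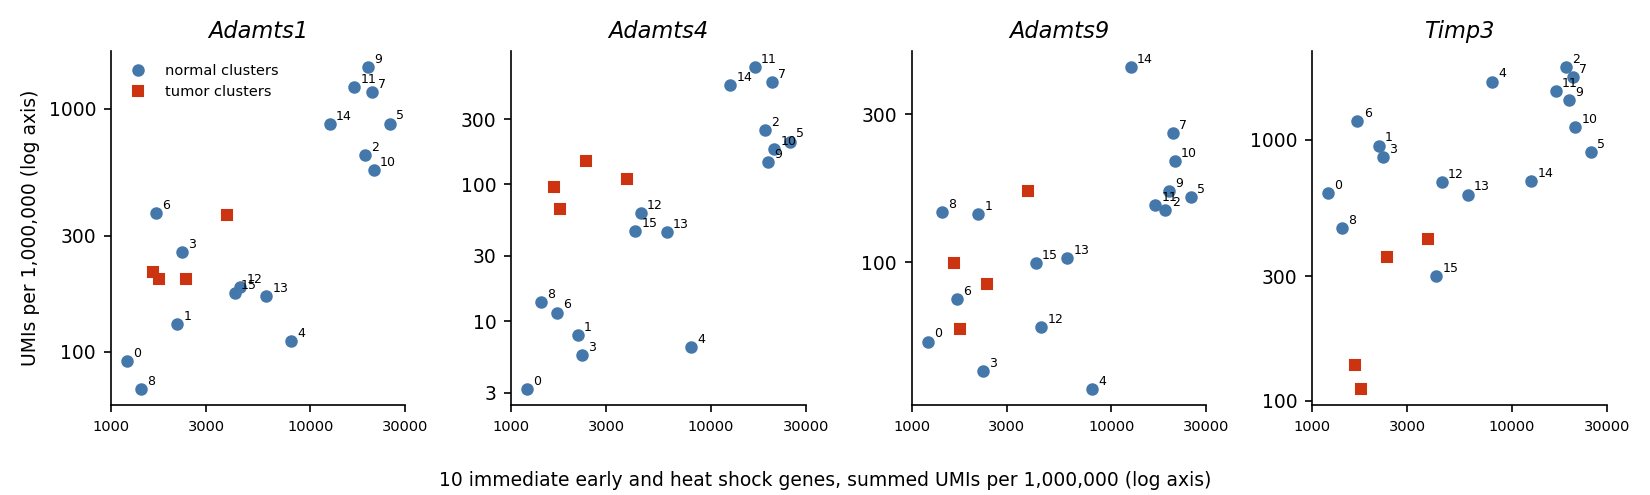
Level of Adamts1, Adamts4, Adamts9 and Timp3 (CPM, log axis) against the summed level of 10 immediate early and heat shock genes (log axis), 1 point per endothelial cluster, with normal clusters numbered. Adamts1 reaches 560 to 1483 CPM in the 7 normal clusters on the right and 70.3 to 373 CPM in the 9 others.

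Adamts1 stood at 947 CPM in the former and 167 CPM in the latter, 5.66-fold apart (log2 ratio 2.50, 2.43 to 2.57), with single clusters at 560 to 1483 and 70.3 to 373 CPM. Adamts4 stood at 374 and 16.3 CPM, 23.0-fold apart, with ranges of 145 to 724 and 3.17 to 61.7 CPM. Adamts9 stood at 201 and 84.9 CPM, 2.37-fold apart, with ranges of 147 to 427 and 38.9 to 145 CPM. In none of the 3 genes did the ranges of cluster levels overlap, as was the case in this direction for 1.74% of 8257 genes, although for Adamts9 the intervals of the nearest clusters did, at 147 CPM (133 to 163) in cluster 2 and 145 CPM (123 to 170) in cluster 8. No member had all 7 clusters below the 9 others, as 0.63% of genes did. The 5 other members differed less than these 3 or in the opposite direction, at 1486 against 856 CPM for Timp3, 13.0 against 10.7 CPM for Timp1, 13.5 against 16.9 CPM for Mmp14, 48.7 against 99.7 CPM for Timp2 and 247 against 503 CPM for Timp4. The split follows the immediate early genes of the same cells, and its cause was not tested.

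The same contrast appeared between clusters that shared leading genes. Clusters 7 and 6 shared 7 of their 10 leading genes, Penk and Pacsin1 among them, and stood at 20358 and 1688 CPM of the immediate early list. Adamts1 stood at 1166 and 373 CPM in them, Adamts4 at 563 and 11.5 CPM and Adamts9 at 262 and 75.9 CPM, whereas Timp4 stood at 24.7 and 18.1 CPM with an interval of the ratio that included equality. Clusters 5 and 0, which shared 4, held Adamts1 at 867 and 91.4 CPM and Adamts4 at 206 and 3.17 CPM. Timp4 did differ between them, at 1290 and 1921 CPM. It also differed between clusters 2 and 4, which shared 2 leading genes, at 34.1 and 10.1 CPM. The 2 arterial-like clusters, 9 and 3, held Adamts1 at 1483 and 257 CPM and Adamts4 at 145 and 5.65 CPM. Among venous-like clusters, 14 held Adamts4 at 535 CPM, against 13.9 CPM in 8 and 61.7 CPM in 12. The arterial-like and venous-like levels of these 2 genes, which entered the ratios given above, are therefore sums over unlike clusters. The same holds for Adamts9, at 170 and 44.5 CPM in clusters 9 and 3 and 427 and 145 CPM in clusters 14 and 8. The capillary-like levels of these ADAMTS genes were those of cluster 0 alone, without cluster 5.

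Against the 9 normal clusters low in the list alone, Adamts4 was 7.05-fold higher in tumor endothelium, a log2 ratio of 2.82 (2.57 to 3.07), in place of -0.62. Adamts1 was then higher by 0.62 (0.51 to 0.72) in place of lower, and Adamts9 by 0.45 (0.29 to 0.60). The 5 others kept their direction, at 3.77 for Mmp14, 3.25 for Timp1, -1.61 for Timp2, -1.57 for Timp3 and -11.19 for Timp4. The 4 tumor clusters held the list at 1631 to 3811 CPM.

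The members other than Timp4 spanned less over the 4 tumor clusters than over the 16 normal ones, which are more in number. Over capillary-like, arterial-like and venous-like normal cells alone, Timp3 spanned 1.87-fold, less than over the tumor clusters. From the lowest to the highest of the 4 clusters, Timp3 spanned 3.77-fold, Adamts9 2.79-fold, Adamts4 2.24-fold and Timp1 2.21-fold, and Mmp14, Adamts1 and Timp2 stayed within 2-fold. Of 8965 genes with at least 10 CPM in 1 of these clusters 54.7% spanned 2-fold, so that 4 of the 7 members that reached this level is close to the share of all genes. Cluster 0 (85 cells, led by Tbxa2r, Cldn15 and Col13a1) held the most Timp3, at 417 CPM, Adamts1, at 366 CPM, and Adamts9, at 170 CPM. Cluster 1 (67 cells, led by Pgf, Bmp2 and Egln3) held the most Mmp14, at 323 CPM, 1.63-fold that of cluster 0, and the most Adamts4, at 149 CPM. Mitotic-like cluster 3 (54 cells) held the most Timp1, at 139 CPM, 2.21-fold that of cluster 0, and Timp3 at 137 CPM, 3.05-fold below cluster 0. Cluster 2 (56 cells) had a median depth of only 2194 UMIs per cell, where the others had 16868 to 29966, and its lowest levels of Adamts4 and Adamts9 rested on 12 and 11 UMIs. Without cluster 2, Adamts4 spanned 1.56-fold and Adamts9 2.00-fold, and 3 of the 7 members and 27.4% of all genes spanned 2-fold.

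Cancer-like cells of the same library held a different set. Timp2 stood at 392 CPM (381 to 403) in cancer-like cells and 32.6 CPM in tumor endothelium, 12.0-fold higher, a log2 ratio of 3.59 (3.35 to 3.83). It was the 1 member at least 2-fold higher, where 14.7% of 7948 genes compared were. Of the 7 members compared, 5 were at least 2-fold lower, where 19.2% of all genes were. Over all 8 members the median log2 ratio was -3.87, with Timp4, at 0 against 1 UMI and not compared, counted as the lowest. Over all genes compared it was 0.04. Both groups came from 1 library and 1 pool of tumors.

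Mmp14 and Timp1 were nearest to the endothelial level. Mmp14 stood at 88.9 CPM (83.7 to 94.5) in cancer-like cells, 38.5% of its level in tumor endothelium, and Timp1 at 65.0 CPM (60.5 to 69.7), or 64.1%, which lay within 2-fold. Adamts1 stood at 21.6 CPM, or 8.42%, and Adamts4 at 6.38 CPM, or 5.57%. Timp3 had 16 UMIs among 11908383, at 1.34 CPM or 0.465% of the endothelial level, and Adamts9 had 3 UMIs, a log2 ratio of -8.84 (-11.13 to -7.29). Timp4 had 0 UMIs, which allows up to 0.252 CPM by a limit of 3 counts, and up to 0.310 CPM by the Poisson interval. For scale, the 10 endothelial markers stood in cancer-like cells at 0.921% of their summed endothelial level. In the other direction, Timp2 in tumor endothelium stood at 8.33% of its level in cancer-like cells, against 0.517% for the trio that defined them. Both the trio and Cdh5 plus Pecam1, 2 of the endothelial markers, chose the cells, so both shares are descriptions that the rule partly fixes, and the part of free RNA was not tested.

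Against normal endothelium, cancer-like cells held 5.78-fold more Mmp14, 5.55-fold more Timp1 and 5.10-fold more Timp2. In the 2 classes of the tumor library Mmp14 and Timp1 were thus both above normal endothelium, whereas Timp2 was above it in cancer-like cells and below it in tumor endothelium. These comparisons share the tumor or the normal cells and are not independent of each other.

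The other genes of the system were taken from lists of proteases, inhibitors, plasminogen activation, matrix substrates and Mmp14 partners, together with the synapsin genes. Members left aside, 51 of their genes could be compared. Of these, 21 or 41.2% were at least 2-fold higher in tumor than in normal endothelium, beside 10.2% of all genes, and 10 or 19.6% were at least 2-fold lower, beside 17.6% of all genes, the synapsin gene Syn3 among the latter. The lists were chosen with earlier results of these data known, so these shares are descriptions that the choice may partly fix. Among ADAMTS proteases, 3 other genes could be compared. Adamts7, which cuts the matrix protein COMP, was higher, at 78.2 against 7.15 CPM and a log2 ratio of 3.45. Adamts5, the other main aggrecan-cutting enzyme, was lower, at 7.52 against 49.6 CPM, as was Adamts10, at 11.8 against 25.6 CPM. Of 23 members of the matrix metalloproteinase family only Mmp14 and Mmp15 reached a mean of 10 CPM in these 2 endothelia, and Mmp15, a membrane-anchored relative of Mmp14, stood at 73.2 against 84.6 CPM. Mmp2, whose product Mmp14 activates, had 16 UMIs in tumor endothelium, 3.44 CPM, and stood at 18.8 CPM in cancer-like cells.

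**Figure D5:**
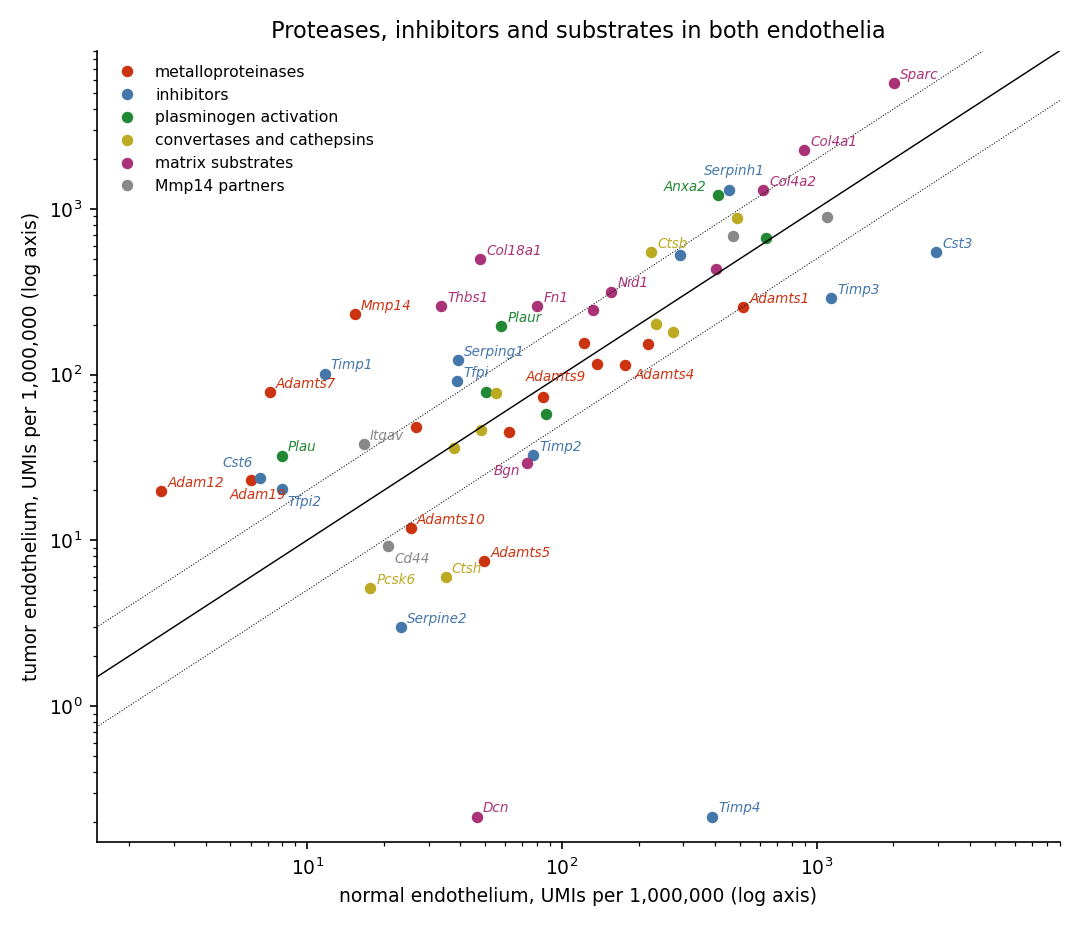
Level of the proteases, inhibitors, plasminogen activation genes, matrix substrates and Mmp14 partners that could be compared, in normal (x axis) and tumor endothelium (y axis), in CPM on log axes. The solid line marks equality and dotted lines 2-fold, and names are given for the 8 genes and for the plotted genes at least 2-fold apart. Mmp14, Timp1 and Adamts7 lie above the upper dotted line at the left, and Timp4 and Dcn lie at the bottom with 1 tumor UMI each.

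Among 9 other protease inhibitors that could be compared, 6 were higher and 2 lower. Cst6 stood at 23.8 against 6.55 CPM, Serping1, the C1 inhibitor, at 122 against 39.0 CPM and Serpinh1, a collagen chaperone of the serpin family, at 1304 against 452 CPM. Serpine2 was lower, at 3.01 against 23.3 CPM, and so was Cst3, an inhibitor of cathepsins, at 548 against 2940 CPM. Of 6 plasminogen activation genes 3 were higher and none lower: Plau, the urokinase, at 32.4 against 7.94 CPM, its receptor Plaur at 196 against 57.8 CPM, and Anxa2, a plasminogen-binding protein, at 1216 against 410 CPM. The tissue activator Plat lay within 2-fold, at 78.6 against 50.5 CPM.

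Of 6 membrane ADAM proteases 2 were higher, Adam12 at 19.8 against 2.68 CPM and Adam19 at 23.0 against 6.01 CPM. Ctsb was higher and Ctsh lower among 6 cathepsins, at 548 against 223 CPM and 6.01 against 34.9 CPM. Of 3 proprotein convertases, the enzymes that activate Mmp14 and ADAMTS precursors, Pcsk6 was lower, at 5.15 against 17.7 CPM, and Furin stood at 46.2 against 48.1 CPM. Among partners of Mmp14, the integrin gene Itgav was higher, at 38.0 against 16.7 CPM, and Cd44, a surface protein that Mmp14 cuts, was lower, at 9.23 against 20.7 CPM. In cancer-like cells Cd44 stood at 212 CPM.

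Of 11 matrix and proteoglycan substrates 7 were higher in tumor endothelium and 2 lower. The leading genes were Col18a1, the source of endostatin, at 496 against 47.8 CPM, the thrombospondin gene Thbs1, which is also an Adamts1 substrate, at 260 against 33.7 CPM, the fibronectin gene Fn1 at 258 against 80.2 CPM, and Sparc at 5710 against 2015 CPM. Versican, the substrate that Adamts1, Adamts4 and Adamts9 have in common, is encoded by Vcan, which stood at 3.44 CPM in tumor and 10.2 CPM in normal endothelium and at 27.0 CPM in cancer-like cells. The small proteoglycan genes Dcn and Bgn were lower, with 1 tumor UMI against 46.3 CPM and 29.4 against 73.2 CPM. Dcn also led the fibroblast markers in normal endothelium, all 8 of which were detected there at 120 CPM in sum, against 6 of 8 and 7.52 CPM in tumor endothelium with Lum and Dpt at 0, and their part in these levels was not tested. Against tumor endothelium, 10 of 11 substrates compared were at least 2-fold lower in cancer-like cells, and Vcan was higher. Of all 7948 genes compared, 19.2% were lower and 14.7% higher.

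Levels of the members were last set beside those of all other genes over the 19 endothelial clusters, 15 normal ones without the pericyte-like cluster and 4 tumor ones, as Pearson correlations of log2(CPM + 1) among 8354 genes. The clusters share 2 libraries and differ in depth, so these values describe patterns. Mmp14 was most like Anxa1 (r = 0.96), Ppp1r14b (r = 0.94) and Itm2c (r = 0.91). Timp4 was most like Lnx1, Lpl and Tcf15 (r = 0.96 for each), of which Lpl encodes lipoprotein lipase and Tcf15 a transcription factor of capillary endothelium. Adamts4 was most like Arf4, Dusp5 and Rgs16 (r = 0.92, 0.90 and 0.88), and Adamts1 was most like Apold1 (r = 0.90), Gramd1a and Mdm2. Timp1 was most like Hdlbp, Oaf and Eef1g, Timp2 most like Rfk, Igfbp4 and Ctsh, Timp3 most like Arhgef12, Rb1 and Fbxw2, and Adamts9 most like Il6, Eif1a and Siah2, with r from 0.80 to 0.94. Over the 15 normal clusters alone, the closest pairs of members were Mmp14 with Timp2 (r = 0.86), Adamts1 with Adamts4 (r = 0.82) and Adamts4 with Adamts9 (r = 0.81). The immediate early list stood at r = 0.81 with Adamts1, 0.86 with Adamts4, 0.57 with Adamts9 and 0.52 with Timp3 over the same clusters, and between -0.16 and 0.10 with the 4 others.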

How the data were processed

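The authors mapped 10x reads with Cell Ranger and worked in Seurat (Cell Ranger version and strand setting not given in the sources used here; build mm10). The deposited tables hold raw counts, whole UMIs per gene and barcode, 1 library per condition. CPM, Poisson, exact binomial and conditional binomial ratio intervals (95%, counting error only) came from scipy 1.17.1 on tables read with pandas 2.3.3 (numpy 2.4.6, Python 3.11.15). Cells are not replicates, so no p-value is given. Genes listed in both tables with a mean of at least 10 CPM were compared, and 2-fold was called a difference. The interval code was tested on simulated data. Clusters came from Seurat 5.3.0 in R 4.3.3 (LogNormalize, 4000 variable genes, family lists left out, 20 principal components, 20 neighbors, resolution 0.8) and took the name of 1 marker list if it alone had most markers at 2-fold over the other clusters in at least 25% of cells (at least 3) and most of those among the 10 leading genes. Scrublet in scanpy 1.11.5 called 0 doublets and is taken not to have worked, so none were removed. Shares were compared after thinning to 1500 UMIs, which left out 694 normal and 11 tumor endothelial cells and 1 cancer-like cell. Of the symbols, 98.8% of each table matched GENCODE M21. The text names all members, up to 4 genes per list and direction by size of ratio, up to 10 leading genes per cluster and 3 most alike genes per member; Vcan, Mmp2, Plat, Furin, Mmp15 and Syn1 to Syn3 were named beyond this rule, and some genes that it names are not reported here or plotted. Alternatives changed the cell filters and class limits, the denominator, the reference cells, the fold and level limits and the clustering. Members and lists were chosen with earlier results of these data known.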

Additional observations from a re-analysis of the deposited data

How the results depend on the processing

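No paired analysis was possible because each condition has 1 library. Of 332 single-gene values under the alternatives, 174 stayed within the counting interval of the value reported, 148 moved beyond it, and 10 that were called at 2-fold changed sign; the cause was not tested. They were Timp2 against capillary-like cells alone (log2 ratio 2.63) and Adamts1 against capillary-like (1.49), high endothelial venule-like (0.55) and mitotic-like cells (0.60) and without the clusters high in immediate early genes (0.62), the last chosen after the data had been seen, like leaving out the shallowest tumor cluster and comparing 1 named type in both libraries. Between mitotic-like cells of both libraries the remaining 5 arose, where Adamts1 had a ratio above 0 with the clusters reported (0.33), resolution 1.2 (0.47) and all variable genes kept (0.32). With 10 and 30 principal components its ratios of 0.089 and 0.17 had intervals that included 0, so no turn in direction is shown there. In each of these 5 settings 2 members were at least 2-fold lower, beside 17.5% to 18.7% of all genes. Against capillary-like cells alone, 6 members were at least 2-fold higher and 2 lower, beside 13.0% and 19.9% of all genes. The count of 4 lower members became 2 with a mean over cells, with thinning and with a 3-fold limit. It was also 2 against high endothelial venule-like or mitotic-like cells alone. In these settings, in this order, 17.4%, 19.6%, 8.40%, 9.07% and 15.4% of all genes were lower, beside 17.6% as reported. Of the other list genes, 11 in place of 21 were at least 3-fold higher, beside 4.54% of all genes. The 10 lower ones became 6, 4 and 5 against capillary-like, high endothelial venule-like and mitotic-like cells alone. Of all genes, 19.9%, 9.07% and 15.4% were lower against them. The lower list genes became 21 with all genes that had a UMI in both groups and 2 with a mean of at least 50 CPM. Of the 7 members compared, 1 at resolution 0.4 and 7 at resolution 1.2, in place of 4, spanned 2-fold over tumor clusters, beside 43.8% and 71.8% of all genes over 3 and 6 clusters. Totals without mitochondrial, ribosomal and the 20 most abundant genes shifted all log2 ratios of cancer-like cells over tumor endothelium upward by 0.15, with the same counts of members. The count of lower members was 3 under several further settings, beside 15.4% to 19.9% of all genes. An example was centring on the median of all genes, at 15.4%, where Adamts1 left the 2-fold limit. Tumor cluster 2 held 180471 UMIs, where the 3 others held 1388768 to 1623707, which limits what can be seen in it.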

Other observations

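Cells outside both classes also held the members. In the normal library 1464 cells were not endothelial by the rule, with salivary genes at 128168 CPM in sum, and 887 of them would have met the limits used for cancer-like cells. They held Mmp14 at 43.4 CPM (40.2 to 46.8), Timp1 at 20.6 CPM, Timp2 at 96.8 CPM and Timp3 at 193 CPM. Pericyte-like cells of the normal library held Adamts4 at 724 CPM (678 to 771), the highest of the normal clusters, Adamts1 at 1226 CPM and Timp3 at 1536 CPM. The 28 tumor cells in neither class were shallow, with a median of 1298 UMIs, and held 15 Timp2 UMIs and no UMI of Timp3, Timp4 or Adamts9.

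Adamts8 and Adamts14, named here after their values were seen, stood at 16.8 and 16.5 CPM in cancer-like cells and at 1.93 and 0.859 CPM in tumor endothelium. Adam8 stood at 21.9 CPM in cancer-like cells and 1.5 CPM in tumor endothelium.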
